A study of Homo sapiens with 2 samples.

Results

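The genes ANKRD1, CCN2, FJX1, AJUBA, AXL and AMOTL2, known outputs of the Hippo pathway, were followed in A549 cells after mechanical stretch. They are 6 of the 14884 genes that could be named on the array and are covered by 7 of its 53617 probe sets, since CCN2 has 2. The genes were picked by name, with their difference between the arrays already known, so their values are a description and carry no test. A549 is an established human lung adenocarcinoma line. RNA came from cells under stretch for 4 h and from cells in static culture for 4 h, with no further treatment or allele named. Each condition is 1 Affymetrix array, so no value below has a replicate or an error, no p-value can be given, and the number of arrays limits the precision. The labels do not state how the cells were stretched, and the title of the stretched sample misspells the name of the line that its source name gives as A549.

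YAP1 and WWTR1 encode YAP and TAZ, co-activators without a DNA-binding domain of their own that act on genes through the TEAD transcription factors. The Hippo kinases phosphorylate YAP and TAZ and keep them out of the nucleus. Spread, stretched or stiffly attached epithelial cells are known to hold more YAP in the nucleus, and its target genes serve as a readout of that activity. The genes described here cover several roles: a nuclear and sarcomeric cofactor (ANKRD1), a secreted matrix protein (CCN2), a secretory-pathway protein of planar polarity (FJX1), a receptor (AXL), and adaptors that feed back on the pathway (AJUBA and AMOTL2).

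TEAD factors bind the letters CATTCC, which read GGAATG on the other strand. RefSeq promoter windows (build GRCh38.p14, 250 bases before to 50 bases after a gene's start) were available for all 6 genes, 9 windows in all, because AJUBA, AXL and AMOTL2 have 2 starts each. The motif was searched on both strands. It occurred in 5 of the 9 windows, against 14.0% of all 35116 windows. Among windows of other YAP and TAZ target genes measured here, 1 of 4 held it. At least 1 window held it for 5 of the 6 genes, but no share per gene was taken for comparison. The genes are known outputs of the pathway, so these counts are a description. The stretch of promoter around the matches is printed for these 5 windows to show where the letters lie, in the direction of the gene, with the match in capitals and 20 bases to either side.
ANKRD1: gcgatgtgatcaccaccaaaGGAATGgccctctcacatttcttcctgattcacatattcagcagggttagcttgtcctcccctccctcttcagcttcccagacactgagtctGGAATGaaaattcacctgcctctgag
CCN2: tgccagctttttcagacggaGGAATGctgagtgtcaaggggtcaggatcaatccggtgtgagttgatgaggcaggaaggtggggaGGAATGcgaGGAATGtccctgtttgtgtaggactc
AJUBA: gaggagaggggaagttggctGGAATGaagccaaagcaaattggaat
AXL: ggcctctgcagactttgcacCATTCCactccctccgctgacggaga
AMOTL2: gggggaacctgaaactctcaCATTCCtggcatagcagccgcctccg
The ANKRD1 bases are chr10:90921190-90921327 on the minus strand, with matches that begin 220 and 128 bases before the start. The CCN2 bases are chr6:131951442-131951561 on the minus strand and hold 3 matches, beginning 169, 104 and 95 bases before the start, the last a few bases apart from its neighbour. Windows with 2 or more matches made up 1.37% of all windows, and those with 3 or more 0.128%. The AJUBA bases are chr14:22976876-22976921 on the minus strand, the AXL bases chr19:41226523-41226568 on the plus strand and the AMOTL2 bases chr3:134374491-134374536 on the minus strand. Each of these holds 1 match and belongs to the second listed start of its gene, while the first listed start of each held none. The FJX1 window held no match. The AP-1 motif TGANTCA, which is the same on both strands, occurred in 1 of the 9 windows, that of ANKRD1 (7.71% of all windows), and overlapped no TEAD match. The CArG box of serum response factor occurred in 0 of the 9 (1.29% of all windows). A match is a description of letters in these windows and does not show that a factor was bound.

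Every one of the 6 genes had a higher signal on the stretched array. The log2 difference, stretch minus static, ran between 1.41 and 5.74 with a median of 2.625 for the probe set with the highest mean signal of each gene. The median difference of all 14884 named genes was 0.06. In bulk RNA, more cells that express a gene and more RNA per cell cannot be told apart. All 6 were at least 2-fold higher, a call made for 12.3% of the 10981 genes whose higher value reached 2.52, the median of all values, and for 9.07% of all named genes. The median difference of those 10981 genes was 0.20. At least 2-fold lower were 2.5% of the 10981 and 1.93% of all named genes, among them 0 of the 6. All but AMOTL2 were also at least 4-fold higher, a size reached by 0.766% of all named genes. These shares are given as background only, since the genes were chosen on this contrast.

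ANKRD1 encodes an ankyrin repeat protein of the nucleus and the sarcomere, known from heart muscle as inducible by load. Its signal was 8.13 on the stretched array and 2.39 on the static array, in log2 units of RMA signal. The static value lies within the range of genes that belong to unrelated tissues, whose 95th percentile of 3.98 is used here as a guide to background. The difference of 5.74, or 53.4-fold, was the highest of the 10981 genes past the level filter. Since RMA compresses dim signals, the size of a fold from such a static value is not firm. When those genes were divided into 10 equal bins of mean level, the 1106 genes in the bin of ANKRD1 had a median difference of 0.49, with 10th and 90th percentiles of -0.295 and 1.335.

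CCN2, the secreted connective tissue growth factor that binds integrins and matrix, was measured by 2 probe sets. The brighter one stood at 8.11 under stretch and at 4.52 in static culture, both above the background guide. Its difference of 3.59 (12.04-fold) ranked 5th of the 10981 genes, and no other of the 1097 genes in its level bin had one as high. The dimmer probe set read 2.18 under stretch and 1.22 in static culture, a difference of 0.96 (1.95-fold), with both values within background. With no signal above background, the dimmer probe set neither backs nor contradicts the brighter one. In the lowest level bin, where it lies, 25 of 1095 genes had a difference at least as high.

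**Figure D1:**
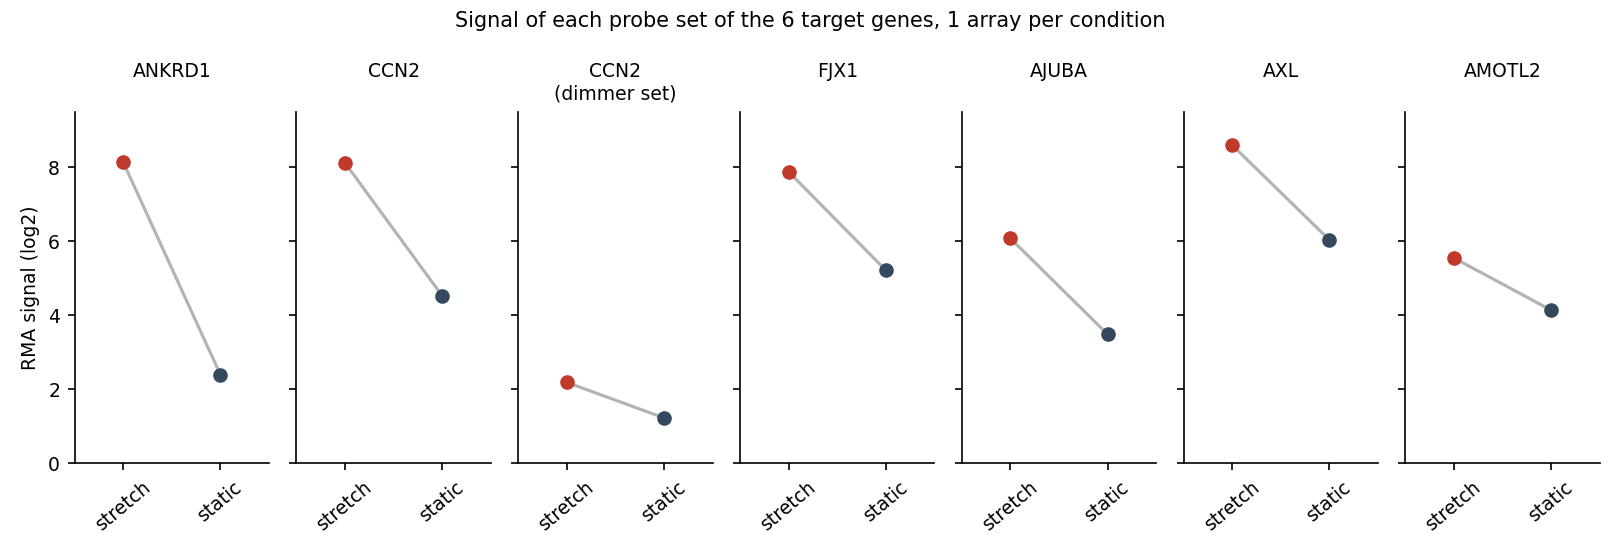
RMA signal (log2) of each of the 7 probe sets on the stretched array (red, left) and the static array (dark, right), 1 array per point. The stretched value is the higher one in all 7, with the widest gap for ANKRD1 (8.13 and 2.39) and the narrowest for the dimmer CCN2 probe set (2.18 and 1.22).

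FJX1 is the human relative of fly four-jointed, a Golgi kinase that acts on the atypical cadherins Fat and Dachsous upstream of Hippo in that species. Its signal was 7.87 under stretch and 5.21 in static culture. Both values are well clear of the background guide, and the difference was 2.66 (6.32-fold), the 24th of the 10981 genes. In its level bin, 6 genes of 1097, FJX1 and CCN2 among them, had a difference at least as high.

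AXL is a receptor tyrosine kinase of the TAM family that binds the ligand GAS6 and is known for its part in invasion and drug resistance of lung cancer cells. It read 8.59 on the stretched array and 6.03 on the static array. AXL had a static signal above the background guide, so its difference of 2.56 (5.90-fold) is among those least touched by compression. In the brightest bin, with 1100 genes and 10th and 90th percentiles of -0.38 and 0.96, 1 other gene had a difference as high.

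AJUBA is a LIM-domain protein of adherens junctions that binds the LATS kinases, and its fly relative restrains the LATS homologue Warts when junctions are under tension. Its signal was 6.07 under stretch and 3.48 in static culture, and the static value lay within background. The difference was 2.59 (6.02-fold) as deposited. From such a static value its size and its place among the other genes are not firm, and with an offset of 16 added to the linear signals it was 1.61, against 2.30 for AXL.

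AMOTL2, an angiomotin that binds YAP at junctions and actin and holds it in the cytoplasm, stood apart from the other genes in size. It read 5.54 under stretch and 4.13 in static culture, a difference of 1.41 (2.66-fold). The static value lies above the background guide of 3.98 but below the highest single value of the unrelated-tissue genes, 4.37. The difference ranked 511th of the 10981 genes, and 79 of the 1094 genes in its level bin had one at least as high. Differences of this size were thus more frequent on these arrays than those of the other 5 genes.

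**Figure D2:**
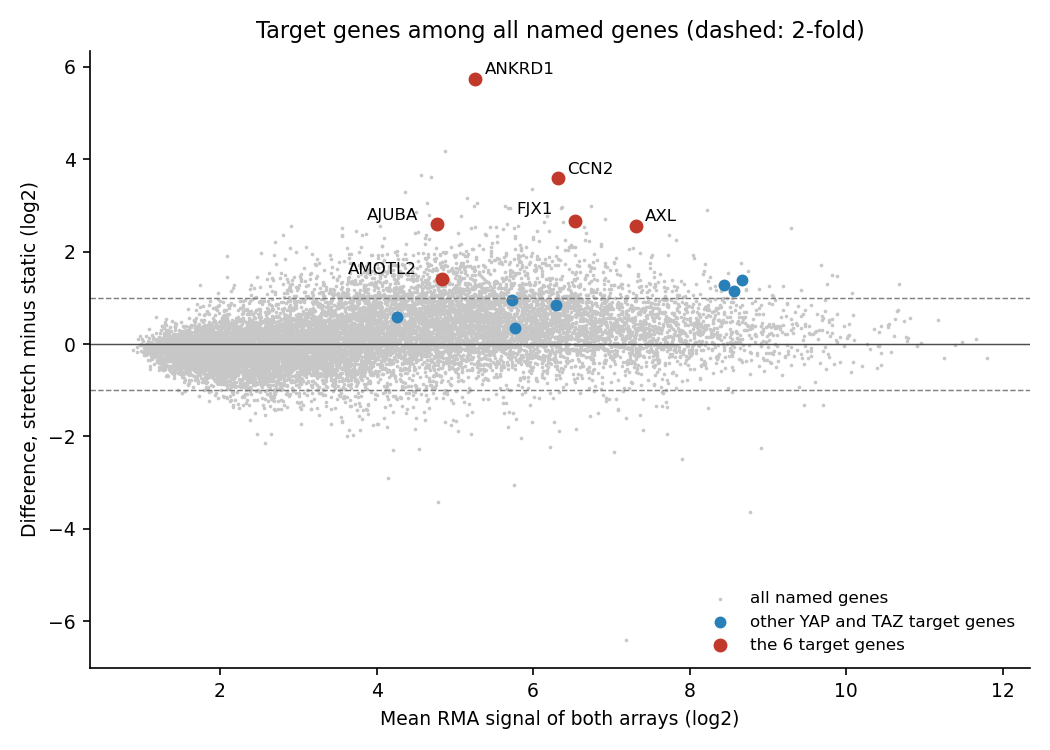
Difference between the arrays (log2, stretch minus static) against mean signal for the 14884 named genes (grey), with the 6 target genes in red and 7 other YAP and TAZ target genes in blue. ANKRD1 lies above all other genes, CCN2, FJX1, AJUBA and AXL along the upper edge of the cloud, and AMOTL2 (1.41) inside its upper part.

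For each gene, the named gene with the most similar pair of signals was found by the straight-line distance between the pairs of log2 values, a likeness over 2 arrays that compares no amounts of RNA. ANKRD1 had no near neighbour: the closest gene was MIR221, at a distance of 1.23, with 6.97 under stretch and 2.79 in static culture. STC2, a secreted glycoprotein, was closest to CCN2 at 0.44. The nearest genes were ABHD4 for FJX1 (0.18), TMEM109 for AXL (0.35), the pseudogene WASH5P for AJUBA (0.03) and JOSD1 for AMOTL2 (0.03). Within a distance of 0.5, AMOTL2 had 375 other genes, AJUBA 22, FJX1 16, AXL 3, CCN2 2 and ANKRD1 0.

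A wider list of 23 YAP and TAZ target genes, which holds these 6, had 13 genes measured by name, all past the level filter. Of these, 11 were at least 1.5-fold higher under stretch, against 20.7% of all named genes and 3042 of the 10981 past the level filter. At least 1.5-fold lower were 0, against 8.02% of all named genes and 977 of the 10981. The 11 include the 6 genes picked with this contrast known, so the count is a description. The 7 that are not among the 6 had a median difference of 0.95, against 0.06 for all named genes and 0.20 for those past the level filter. Of the 7, 5 were at least 1.5-fold higher, against 20.7% of all named genes. At least 2-fold higher were 3, against 9.07% of all named genes and 12.3% of those past the level filter. The list was chosen with earlier results of these data known. CRIM1, a transmembrane regulator of BMP signalling, read 9.36 under stretch and 7.98 in static culture. MYOF, the membrane repair protein myoferlin, read 9.07 under stretch and 7.80 in static culture, and DOCK5, an activator of Rac, 9.14 under stretch and 8.0 in static culture. These 3 genes had differences of 1.38, 1.27 and 1.14 from bright signals. After quantile normalization the differences were 1.18, 1.08 and 0.94. After centring on reference genes they were 0.92, 0.81 and 0.68, all under 2-fold. FOXF2 (0.95) and IGFBP3 (0.85) lay between 1.5-fold and 2-fold, while ARHGEF17 (0.58) and CCDC80 (0.34) were under 1.5-fold. The sign of CCDC80 was negative after quantile normalization, after a loess on level and after centring on reference genes. CCN1, the classical partner of CCN2 in such lists, was not analysed here.

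The layer of YAP, TAZ and their DNA-binding partners held differences of both signs. YAP1 read 6.58 under stretch and 5.80 in static culture on its brighter probe set, a difference of 0.78, but 2.0 under stretch and 2.37 in static culture on a second one that lay within background on both arrays (-0.37). WWTR1, encoding TAZ, was lower, with 4.90 under stretch and 5.64 in static culture (-0.74), and it kept that sign under every normalization tried. Among the TEAD factors, TEAD4 had the largest difference, with 6.16 under stretch and 4.57 in static culture (1.59). TEAD1 stood at 0.84, TEAD2 at 0.16 and TEAD3 at 0.00. The cofactor VGLL3, which also binds TEAD factors, stood at 1.11 and VGLL4 at 0.60. Their static values, 4.07 and 4.04, lie above the background guide but below 4.37, the highest single value of the unrelated-tissue genes. After quantile normalization VGLL3 and VGLL4 stood at 0.765 and 0.295, and after centring on reference genes at 0.65 and 0.14. This layer of 10 genes had a median of 0.38. Past 1.5-fold, 5 of them were higher (20.7% of all named genes) and 1, WWTR1, was lower (8.02% of all named genes). In this layer 9 of the 10 passed the level filter, and of all 10981 genes past it 3042 were higher and 977 lower. TEAD3, VGLL1 and VGLL2 were within background on both arrays, so their small differences are not informative. TEAD2 turned negative after quantile normalization, loess and reference centring.

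Kinases and scaffolds of the Hippo pathway outside the target list were measured for 33 of 47 genes. Their median difference was 0.34. Past 1.5-fold, 14 were higher under stretch and 0 lower, against 20.7% and 8.02% of all named genes, and 5 of the 14 reached 2-fold, against 9.07%. Of the 33 genes, 8 were within background on both arrays, among them RASSF1, which is 1 of the 14. NF2, the tumour suppressor merlin that recruits LATS kinases to the membrane, had 6.96 under stretch and 4.85 in static culture (2.11). Its partner WWC1, also called KIBRA, had 7.01 under stretch and 5.10 in static culture (1.91), and SAV1, the scaffold of the upstream kinases, 5.53 under stretch and 3.77 in static culture (1.76). WTIP, a relative of AJUBA, stood at 1.60 and the kinase TAOK2 at 1.08. The static value of SAV1 lay within background. The kinase STK3 read 3.38 under stretch and 3.6 in static culture (-0.22), within background on both arrays, while STK4 stood at 0.57. The counts at 1.5-fold were 16 higher and 0 lower with the array medians set equal, 10 and 0 with the offset, and 9 and 0 after loess. They were 8 and 1 after quantile normalization, and 5 and 4 with the arrays centred on reference genes. No share of all genes at 1.5-fold was taken under these scalings. Over all genes past the level filter, the number at least 2-fold higher also moved, from 1349 as deposited. It was 1693, 491, 794, 708 and 475 under the same scalings, in the same order.

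**Figure D3:**
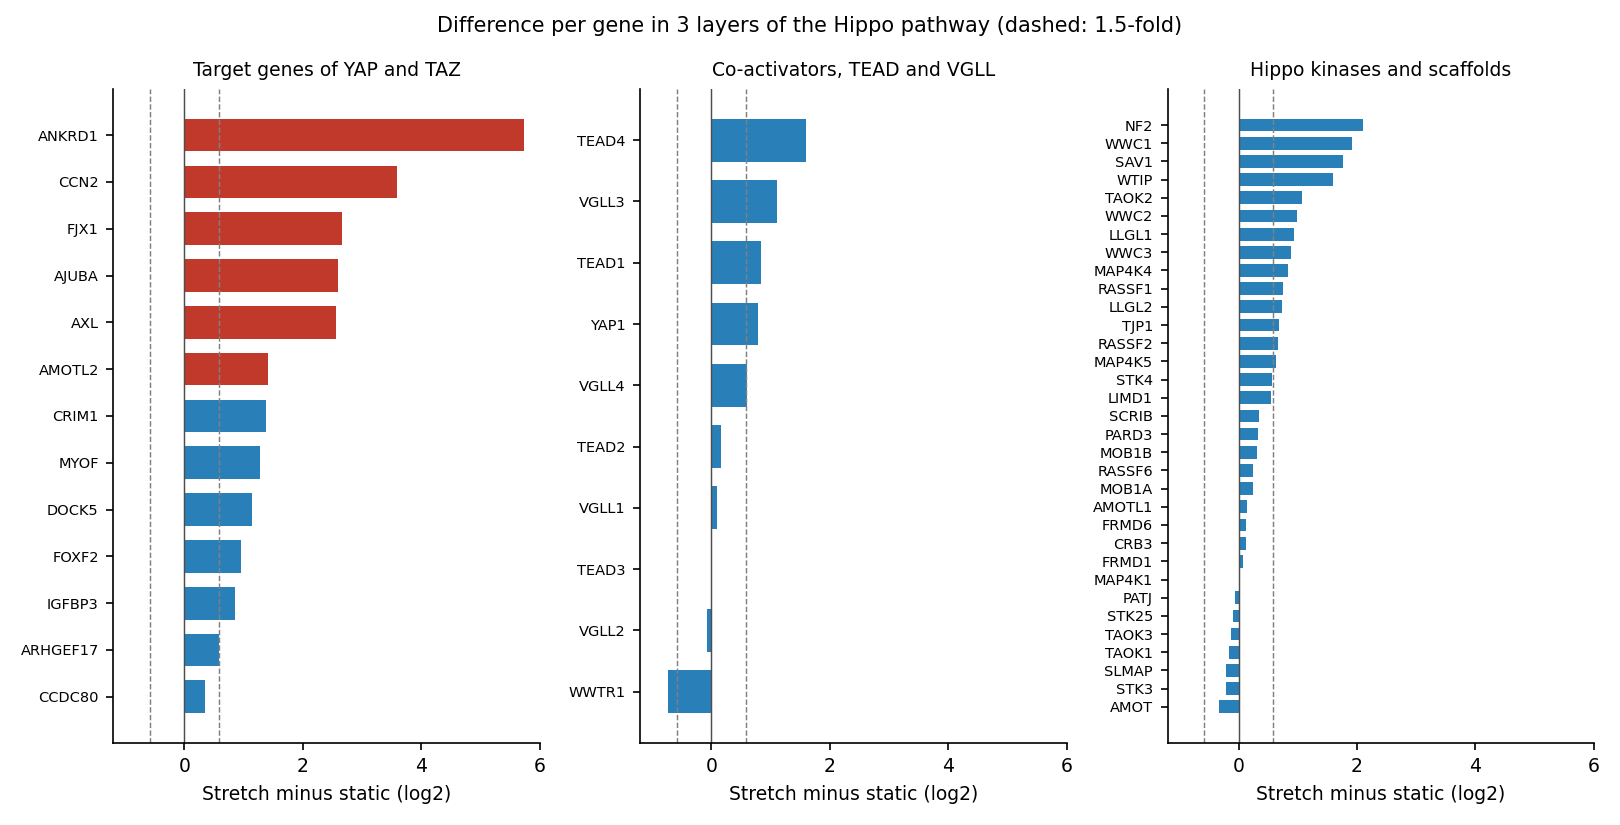
Difference per gene (log2, stretch minus static; bars start at 0) for 13 target genes, 10 co-activator and TEAD-layer genes and 33 kinase and scaffold genes, with the 6 genes described here in red and 1.5-fold marked by dashed lines. The target genes are all above 0, WWTR1 is the one bar below the lower dashed line, and NF2 (2.11) is the highest of the kinases and scaffolds.

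The close relatives of the 6 genes could be compared only in part, since many had little signal. Across the 6 families, 23 relatives, ligands or partners were measured, and 11 of them were within background on both arrays, where a difference is not informative. Past 1.5-fold, 5 of the 23 were higher and 0 lower, close to the 20.7% of all named genes on the higher side, and 3 of the 5 (FAT4, WTIP and ZYX) reached 2-fold, against 9.07% of all named genes. These counts are therefore no result about the relatives. Among those with signal above background, the muscle ankyrin repeat gene ANKRD23 read 4.54 under stretch and 4.44 in static culture, CCN5 5.04 under stretch and 5.14 in static culture, and AMOTL1 5.41 under stretch and 5.26 in static culture. Each of these differed by less than 1.5-fold. ANKRD23 and AMOTL1, at 0.10 and 0.15, were negative after quantile normalization, loess and centring on reference genes. ANKRD2, CCN3, CCN4, CCN6 and AMOT were within background on both arrays.

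A pair of families held another gene with a large difference. FAT4, an atypical cadherin, read 5.94 under stretch and 3.08 in static culture, a difference of 2.86. Its static value lay within background, so the size is not firm: with the offset FAT4 stood at 1.66 and FJX1 at 2.24. FAT1 stood at 0.68, and FAT2, FAT3 and DCHS1 were within background on both arrays. In the LIM family WTIP read 6.22 under stretch and 4.62 in static culture, and ZYX, the focal adhesion protein zyxin, 5.96 under stretch and 4.65 in static culture (1.31), while LIMD1 stood at 0.55 and TRIP6 at 0.27. The AXL ligand GAS6 read 3.80 under stretch and 3.49 in static culture, within background on both arrays, and the second TAM ligand PROS1 stood at -0.49. The receptor MERTK, with 4.16 under stretch and 3.89 in static culture, was under 1.5-fold, and TYRO3 was within background on both arrays. TRIP6 and MERTK turned negative after centring on reference genes, TRIP6 also after quantile normalization and loess.

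**Figure D4:**
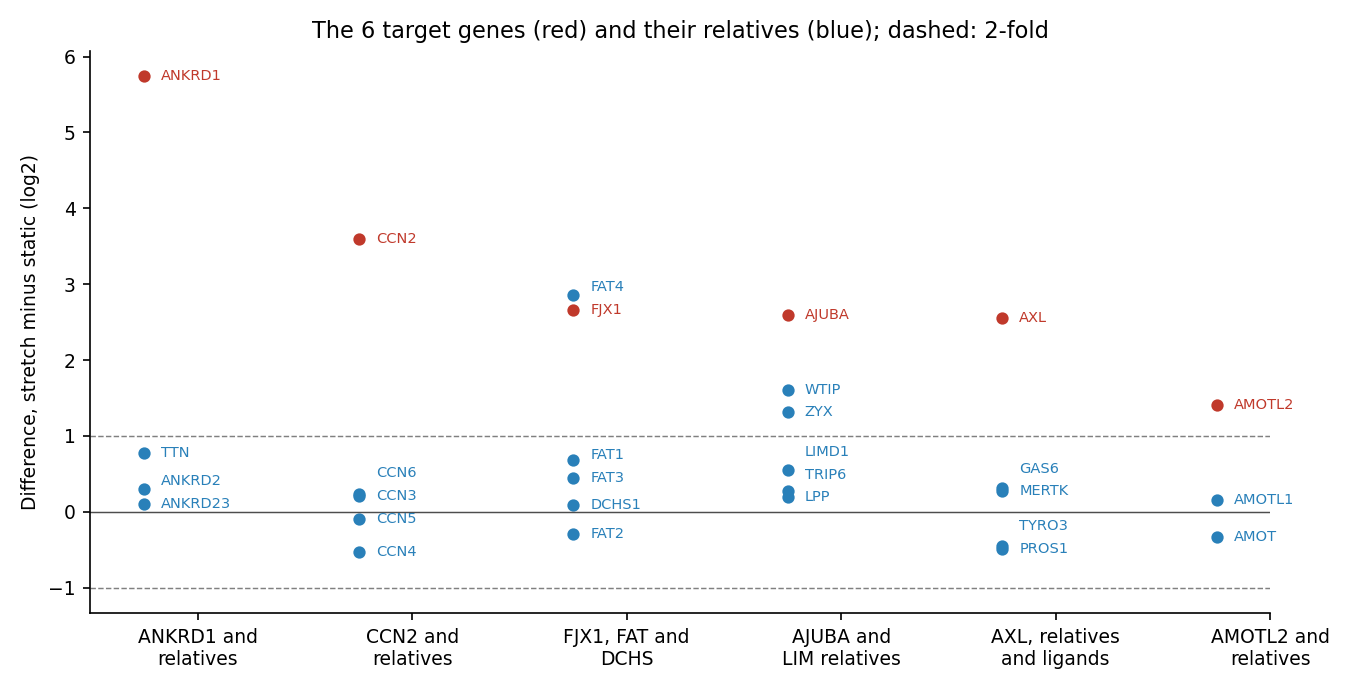
Difference (log2, stretch minus static) of each of the 6 target genes (red) and the measured members of its family, ligands or partners (blue), with 2-fold marked by dashed lines. Each red point is the highest of its column except FJX1 (2.66), which lies below FAT4 (2.86, from a static value within background), and 11 of the 23 blue points belong to genes within background on both arrays.

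How far these values depended on the scale between the arrays was read from the same probe sets. The deposited columns were not on a shared distribution, with medians of 2.47 on the stretched and 2.57 on the static array. Over 8 ways of processing, the lowest differences were 3.80 for ANKRD1, 2.20 for FJX1, 2.10 for AXL, 1.61 for AJUBA, 0.96 for CCN2 and 0.90 for AMOTL2. The difference of ANKRD1 was lowest with an offset of 16 added on the linear scale, which damps dim signals, and that of CCN2 on its dimmer probe set alone. All 6 genes were positive under all 8, though adding an offset cannot change a sign. Of these ways, the ones that change the probe set could alter CCN2 alone. Setting the array medians equal and centring on reference genes shift every gene by the same amount. The shift of 0.46 from centring is smaller than the smallest deposited difference, 1.41, so it could not turn a sign here. AMOTL2 was under 2-fold with the offset and after centring on reference genes (0.95).

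**Figure D5:**
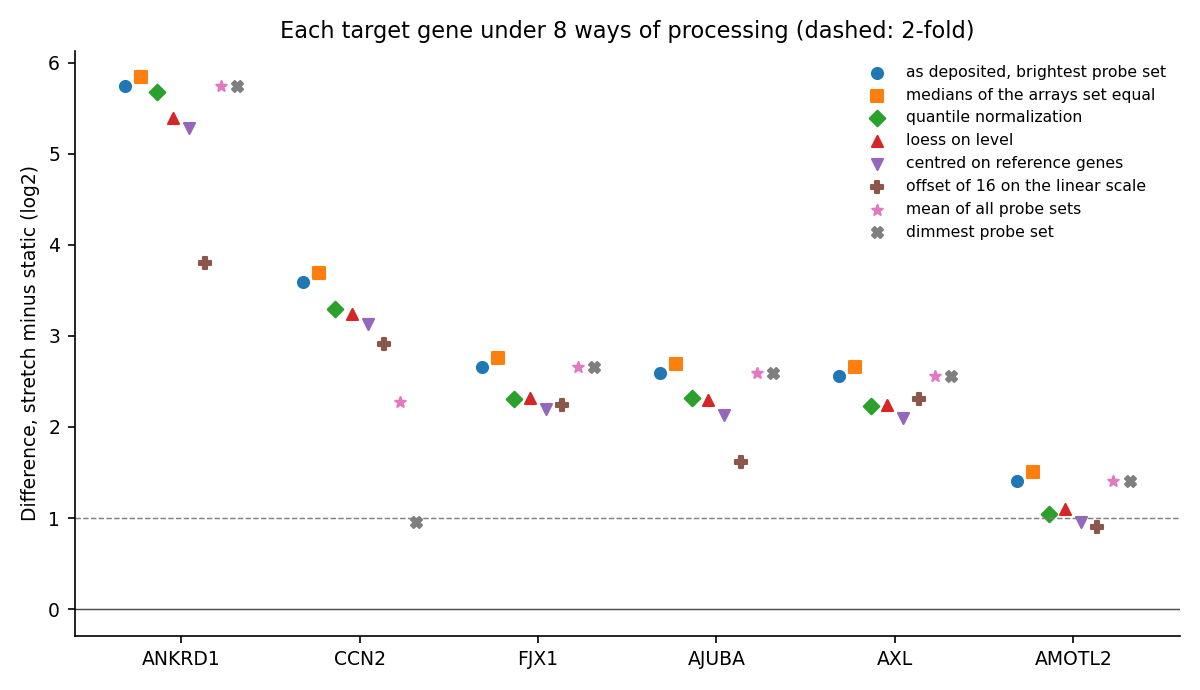
Difference (log2, stretch minus static) of each target gene as deposited and under 7 other ways of processing, with 2-fold marked by a dashed line. All points lie above 0. Those below the dashed line are the dimmer CCN2 probe set (0.96) and AMOTL2 after reference centring (0.95) and with the offset (0.90).

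Marker genes of several cell types were read on both arrays, while the identity of the line comes from the labels. Of 6 measured epithelial markers, 2 (KRT19 and CLDN4) were within background on both arrays. The other 4 moved unequally: KRT7 read 7.56 under stretch and 5.41 in static culture (2.15), KRT8 5.47 under stretch and 4.6 in static culture (0.87), KRT18 11.00 under stretch and 10.29 in static culture (0.71), and EPCAM 4.71 under stretch and 5.30 in static culture (-0.59). The part of these shifts in the results was not tested. All 7 measured alveolar type II markers, surfactant genes among them, were within background on both arrays. All 3 measured fibroblast markers, up to 3.68 under stretch and 3.81 in static culture, and all 6 endothelial ones, up to 3.48 under stretch and 3.23 in static culture, were also within background on both. Of 4 leukocyte markers, CD14 (5.53 under stretch and 5.13 in static culture) and CD68 (8.58 under stretch and 7.51 in static culture) were above it, and LYZ and CSF1R were within it. The part of any such cells in the results was not tested.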

How the data were processed

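RNA of A549 cells was measured on 1 stretched and 1 static Affymetrix array. The deposited log2 values are RMA signals per probe set, per the submitters' processing notes; software, chip definition, build and the scaling between arrays are not given in the sources used here. RMA gives no detection calls. Probe sets were named from the platform annotation through RefSeq gene identifiers: 16098 of 53617 had 1 symbol, 0 several, and the rest are unnamed here. A gene's value is its probe set with the highest mean. Differences are stretch minus static. Genes were counted at 2-fold or 1.5-fold (a log2 difference of 0.585), without a test. The background guide is the 95th percentile over 10 measured of 26 listed genes of unrelated tissues. Reference centring used 7 of 16 listed genes. The loess had a span of 0.3. The members, lists and named genes (the members, listed genes and each member's nearest gene) were chosen with earlier results of these data known. The counting was tested on simulated data. Protein sequences were not used here. Python 3.11.15, numpy 2.4.6, pandas 2.3.3 and statsmodels 0.14.6 were used.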

Additional observations from a re-analysis of the deposited data

How the results depend on the processing

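Among the 6 genes, settings that change the probe set could alter CCN2 alone. The number of the 6 genes at least 2-fold higher was 6 or 5 under every alternative run. Each gene kept its sign, which the offset cannot change. Their median difference of 2.625 became 2.725 with the array medians set equal, 2.31 after quantile normalization, 2.30 after loess, 2.17 after reference centring, 2.27 with the offset, and 2.575 with either the mean or the dimmest probe set. In the same order, the median of 1.38 over the wider target list became 1.48, 1.08, 1.10, 0.92 and 1.21, and 1.27 with the dimmest probe set. Its count at 1.5-fold, which includes the 6 picked genes, stayed between 9 and 12 of 13, and 9 were at least 2-fold higher. The kinase and scaffold count of 14 higher became 8 after quantile normalization, 9 after loess and 5 after reference centring, and 5 at 2-fold; the count lower became 1 after quantile normalization and 4 after reference centring. For neither list was a share of all genes at 1.5-fold taken under the alternatives. Over all genes, 1349 were at least 2-fold higher and 275 lower as deposited (83.1% higher). These became 708 and 446 (61.4% higher) after quantile normalization, 794 and 371 (68.2%) after loess, 475 and 1198 (28.4%) after reference centring, and 491 and 51 with the offset. Genes lower numbered 158 when the filter was raised to the upper quartile of signal and 172 when it was raised to the background guide. Reference centring lowers every difference by the 0.46 that 7 reference genes averaged, which the construction of that scaling fixes; PPIA, at 1.72, had the largest difference among them. For the other settings the cause was not tested. With 1 array per condition no array could be left out, and no paired analysis was possible because each condition has a single sample.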
